A study of Saccharomyces cerevisiae with 6 samples.

Results

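The genes described are 33 *Saccharomyces cerevisiae* genes whose products form or control the proteasome, taken by systematic name from the genes named *SCL1*, *PRE1* to *PRE10*, *PUP1* to *PUP3*, *RPT1* to *RPT6* and *RPN1* to *RPN13*. Of these, 14 encode the core particle, 18 encode the regulatory particle, and *RPN4* encodes a transcription factor and not a subunit. They were followed through lists of H3K4me3 peaks that together name 4970 genes. The *jhd2∆* list held all 33 and the WT list held 32, the exception being *RPT6* (YGL048C), so 32 of the 4526 genes with a peak in both lists were paired. The rule used gene names and no measured value, although earlier results of these data were known when the genes were chosen.

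A wildtype (WT) culture was compared with one lacking *JHD2* (*jhd2∆*), which encodes the demethylase that removes methyl groups from lysine 4 of histone H3. Both cultures are labelled strain BY4742, mating type Mat a, where the strain table of the study gives MATα. They were grown vegetatively in YAR, a synthetic medium with raffinose as the carbon source and ammonium sulfate as the nitrogen source, to an optical density of 0.5. DNA bound by trimethylated histone H3 lysine 4 (H3K4me3) was pulled down with an antibody and sequenced in 1 library per genotype. Neither H3K4me3 library has a replicate, so no difference below has an error between cultures and no p-value is given.

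The proteasome degrades proteins that carry ubiquitin chains. Its core particle is a barrel of stacked rings, in which the alpha rings gate the entrance and the beta rings hold the protease sites, and its regulatory particle recognises, unfolds and feeds in the substrate. In yeast the subunit genes are scattered over the genome and share the activator Rpn4, itself a short-lived substrate of the proteasome. H3K4me3 is laid down by the Set1 complex and marks the start of transcribed genes.

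Each listed peak has a first and a last base, a breadth in bp, and a pileup, which is the height of the read coverage at the peak. The deleted gene matched the labels: *JHD2* (YJR119C) was listed in WT, with 503 bp, and absent from *jhd2∆*. About 14000000 reads of 51 bp per library are stated, and the lists carry no read totals. Over the 4526 paired genes the median breadth was 658 bp in WT against 679 bp in *jhd2∆*, and the median difference per gene, *jhd2∆* minus WT, was 17 bp. The quartiles of those differences were -14 and 60 bp. The study reports the same median breadths over the gene-associated peaks it found in both genotypes, and reads them as wider in *jhd2∆*. The values over the 4526 genes are the background against which the proteasome genes are read. Positions are those printed in the lists, whose genome build is not named.

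Proteasome genes carried wide peaks of similar breadth in both genotypes. In WT the 32 paired genes had a median breadth of 774 bp, quartiles at 735.75 and 796.25 bp, and extremes of 660 and 1072 bp. All 32 were wider than the median of all genes. Of the 2617 paired genes with WT pileup in the members' range of 295 to 345, 62.3% were, and their median breadth was 699 bp. This set shares the range and not the level of the members, with a median WT pileup of 313 against 324. In *jhd2∆* the median breadth of the 32 members was 785.5 bp, with a range from 630 to 1089 bp. The interquartile range in WT was 60.5 bp, against 248 bp over all genes and 218 bp over the genes in that pileup range. Every member had at most 1 peak in a list, no member shared its peak with another gene, and the 33 genes lay on 13 of the 16 chromosomes.

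**Figure D1:**
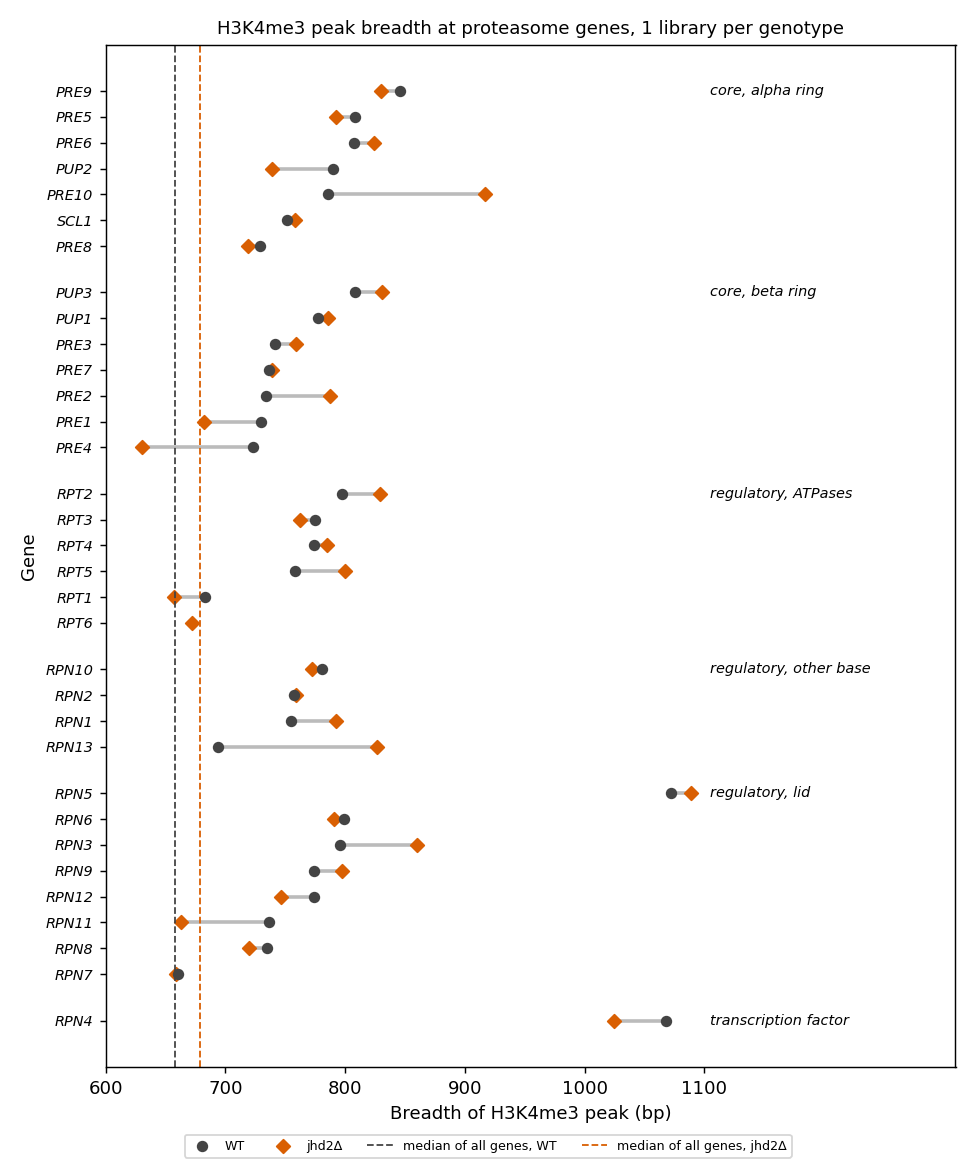
Breadth of the H3K4me3 peak in bp at each of the 33 genes, in WT (dark circles) and *jhd2∆* (orange diamonds), grouped by role, with 1 library per genotype and dashed lines at the medians of all genes (658 and 679 bp). The paired marks lie close together at most genes, *PRE10* and *RPN13* have the longest bars to the right, *PRE4* has the longest to the left, and *RPT6* has only a *jhd2∆* mark.

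Over the 32 genes the difference had a median of 2.5 bp, quartiles at -16 and 23 bp, and extremes of -93 and 133 bp. The peak was wider in *jhd2∆* at 17 of the 32 genes, against 63.2% of all genes, and narrower at 15, against 35.9%. Differences were small for many members: 16 of the 32 had breadths within 20 bp of each other in both genotypes, against 33.5% of all genes. The peak was wider by more than 100 bp at 2 genes, *PRE10* and *RPN13*, against 14.2% of all genes. No member was narrower by more than 100 bp, against 1.30%. The members also had higher pileup than most genes. Among the 2617 genes whose WT pileup lay within the members' range of 295 to 345, the median difference was 9 bp, 57.4% were wider and 8.87% were wider by more than 100 bp. The part that pileup plays in the members' small differences was not tested.

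Of the 7 alpha ring genes, whose products form the outer rings of the core, 3 had a wider peak in *jhd2∆*, and the median difference of the 7 was -10 bp. Over all genes 63.2% had a wider peak, the share to set beside this count and the counts by role below. *PRE10* (YOR362C), an alpha subunit gene, had a peak of 786 bp in WT, on chromosome XV from 1018048 to 1018833, and of 917 bp in *jhd2∆*, from 1017910 to 1018826. The pileup was 318 in WT and 279 in *jhd2∆*. The difference of 131 bp exceeded that of 91.4% of all genes. It lay almost wholly at the downstream edge, which was 138 bp further downstream, while the promoter-side edge was displaced by -7 bp. A negative value here and below means that the upstream, promoter-side edge lay closer to the gene in *jhd2∆*. A positive value for the downstream edge means that it lay further along in the direction of transcription, here called further downstream. Edges were not placed against the ends of the genes. At 8 of the 32 members the WT peak was at least as long as the gene, so a downstream edge may lie past the end of its gene.

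*PUP2* (YGR253C), another alpha subunit gene, differed in the other direction. Its peak was 790 bp in WT, on chromosome VII from 998414 to 999203, against 739 bp in *jhd2∆*, from 998419 to 999157, with pileups of 331 and 300. The upstream edge was displaced by -46 bp and the downstream edge by -5 bp, so nearly all of the 51 bp was lost on the promoter side. The other 5 genes differed little. *PRE9* (YGR135W), the one core subunit gene that yeast can live without, had 846 bp in WT against 830 bp in *jhd2∆*. *PRE6* (YOL038W) had 807 and 824 bp. *SCL1* (YGL011C), *PRE8* (YML092C) and *PRE5* (YMR314W) differed by 7, -10 and -16 bp. In these 5 genes the upstream edge was closer to the gene in *jhd2∆* and the downstream edge was further downstream.

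Of the 7 beta ring genes, 5 had a wider peak in *jhd2∆* and the median difference was 9 bp. Of these genes, 3 encode the protease subunits, and all 3 had a wider peak. *PRE2* (YPR103W), which encodes the chymotrypsin-like subunit, had 734 bp in WT, on chromosome XVI from 732287 to 733020, against 787 bp in *jhd2∆*, from 732298 to 733084, with pileups of 313 and 290. *PRE3* (YJL001W), which encodes the caspase-like subunit, had 741 bp in WT, on chromosome X from 435106 to 435846, against 759 bp in *jhd2∆*, from 435134 to 435892, with pileups of 295 and 257. *PUP1* (YOR157C), which encodes the trypsin-like subunit, had 777 bp in WT, on chromosome XV from 631052 to 631828, against 786 bp in *jhd2∆*, from 631020 to 631805, with pileups of 329 and 312. At each of these genes the downstream edge was further downstream, by 64 bp at *PRE2*, 46 bp at *PRE3* and 32 bp at *PUP1*. The upstream edges were displaced by -11, -28 and -23 bp in the same order. Of these 3 genes, only *PRE2* had a difference above the upper quartile of the 32 members, and all 3 differences were below the upper quartile of all genes.

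The 2 beta subunit genes with narrower peaks were *PRE4* and *PRE1*. *PRE4* (YFR050C) had 723 bp in WT, on chromosome VI from 249180 to 249902, against 630 bp in *jhd2∆*, from 249229 to 249858, with pileups of 320 and 285. Its difference of -93 bp was the lowest of the 32, and 1.5% of all genes had a smaller value. *PRE1* (YER012W) had 730 bp in WT, on chromosome V from 177749 to 178478, against 682 bp in *jhd2∆*, from 177773 to 178454, with pileups of 329 and 287. Both edges were drawn in at both genes, by -44 and -49 bp at *PRE4* and by -24 and -24 bp at *PRE1*, with the upstream edge given first. The structural subunit genes *PUP3* (YER094C), with 808 bp in WT against 831 bp in *jhd2∆*, and *PRE7* (YBL041W), with 736 and 739 bp, had peaks of nearly the same breadth in both genotypes.

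The regulatory particle is built on a ring of 6 ATPases, the Rpt subunits, which unfold the substrate and thread it into the core. *RPT6* was the single member missing from a list. Its *jhd2∆* peak was 672 bp, on chromosome VII from 410654 to 411325, and its pileup of 303 was above that of 89.6% of the 4526 paired genes in *jhd2∆*. Over all genes, 6.88% of the 4970 were listed in *jhd2∆* only. The WT list has no entry along 6940 bp there, between a peak of *TIF4632* that ends at 409779 and a peak of YGL044C that starts at 416720. In that stretch the *jhd2∆* list has 3 peaks, those of *RPT6*, *ALG13* (678 bp, pileup 303) and *RIM8* (681 bp, pileup 271). The peaks of the WT list are numbered, and the numbers on either side of the stretch, 2036 and 2040, skip 3. Absence of *RPT6* from the WT list therefore does not show that no WT peak was called there, and no difference is given for it.

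Of the other 5 ATPase genes, 3 had a wider peak in *jhd2∆*, with a median difference of 11 bp. *RPT5* (YOR117W) had 758 bp in WT, on chromosome XV from 544909 to 545666, against 800 bp in *jhd2∆*, from 544933 to 545732, with pileups of 316 and 299. Its downstream edge was 66 bp further downstream and its upstream edge was displaced by -24 bp. *RPT2* (YDL007W), whose product helps to open the gate of the core, had 797 and 829 bp. The remaining differences were 11 bp at *RPT4* (YOR259C), -13 bp at *RPT3* (YDR394W) and -26 bp at *RPT1* (YKL145W). At all 5 genes the downstream edge lay further downstream in *jhd2∆*, by 4 to 66 bp, and at *RPT1* and *RPT3* the displacement of the upstream edge was the larger.

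The 4 base subunits that are not ATPases include the scaffold proteins Rpn1 and Rpn2 and the ubiquitin receptors Rpn10 and Rpn13, and 3 of their genes had a wider peak in *jhd2∆*. *RPN13* (YLR421C) had 694 bp in WT, on chromosome XII from 964946 to 965639, against 827 bp in *jhd2∆*, from 964792 to 965618, with pileups of 311 and 266. Its difference of 133 bp was the highest of the members and exceeded that of 91.6% of all genes. As at *PRE10*, it lay at the downstream edge, which was 154 bp further downstream, while the upstream edge was displaced by -21 bp. *RPN13* is also the shortest of the genes, at 470 bp, and its peak was longer than the gene in both genotypes, at 148% of the gene length in WT and 176% in *jhd2∆*. How much of the displacement at its downstream edge lay past the end of the gene was not computed. *RPN1* (YHR027C) had 755 and 792 bp, *RPN2* (YIL075C) had 757 and 759 bp, and *RPN10* (YHR200W) had 781 and 772 bp.

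The lid removes ubiquitin chains from the substrate, and 3 of its 8 genes among the members had a wider peak in *jhd2∆*, with a median difference of -4.5 bp. *RPN11* (YFR004W), which encodes the deubiquitinase of the lid, had 736 bp in WT, on chromosome VI from 153299 to 154034, against 663 bp in *jhd2∆*, from 153338 to 154000, with pileups of 308 and 270. Both edges were drawn in, by -39 bp upstream and -34 bp downstream, and 2.6% of all genes had a smaller difference than its -73 bp. *RPN3* (YER021W), a structural lid subunit gene, was at the other end of the lid genes. It had 796 bp in WT, on chromosome V from 196907 to 197702, against 860 bp in *jhd2∆*, from 196930 to 197789, with pileups of 336 and 305. Its downstream edge was 87 bp further downstream. *RPN5* (YDL147W) had the widest peak of all members in both genotypes, 1072 bp in WT against 1089 bp in *jhd2∆*, while *RPN7* (YPR108W) had the narrowest in WT, 660 bp, with 659 bp in *jhd2∆*. The differences of *RPN6* (YDL097C), *RPN8* (YOR261C), *RPN9* (YDR427W) and *RPN12* (YFR052W) were -8, -15, 23 and -28 bp. The lid genes thus held members with wider, narrower and nearly equal peaks.

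*RPN4* (YDL020C), the gene of the transcription factor, had 1068 bp in WT, on chromosome IV from 415883 to 416950, against 1025 bp in *jhd2∆*, from 415929 to 416953, with pileups of 314 and 288. It was the second widest of the members in both genotypes, after *RPN5*. Its upstream edge was displaced by 3 bp, away from the gene, and its downstream edge by -46 bp. *RPN4* was the only one of the 32 with an upstream edge further from the gene in *jhd2∆*.

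Core and regulatory particle genes were compared next. The median breadth in WT was 764 bp over the 14 core genes and 774 bp over the 17 paired regulatory genes, and in *jhd2∆* it was 772.5 and 785 bp. The peak was wider in *jhd2∆* at 8 of 14 core genes and at 9 of 17 regulatory genes, against 63.2% of all genes. The median difference was 5 bp for the core and 2 bp for the regulatory particle, with ranges from -93 to 131 bp and from -73 to 133 bp. These ranges overlap almost completely. Genes of a particle are not replicates of a genotype, so the distance between the medians was not tested.

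The particles stood further apart in gene length than in breadth. The gene length in the lists had a median of 763.5 bp over the core genes, from 596 to 866 bp, and of 1304 bp over the paired regulatory genes, from 470 to 2981 bp. WT peaks therefore came to between 85.1% and 131% of the gene length at core genes and between 25.3% and 148% at regulatory genes. The peak was at least as long as the gene at 7 of 14 core genes and at 1 of 17 regulatory genes, *RPN13*. That makes 8 of the 32 members, against 19.9% of all genes. At the longest gene, *RPN1*, with 2981 bp, the WT peak was 755 bp, and at *PRE1*, with 596 bp, it was 730 bp. Across the 32 genes, gene length and WT breadth had a Spearman rho of 0.143, against 0.270 across the 4526 genes. Peaks of all these genes come from the same library in each genotype, and the values are given as a description.

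**Figure D2:**
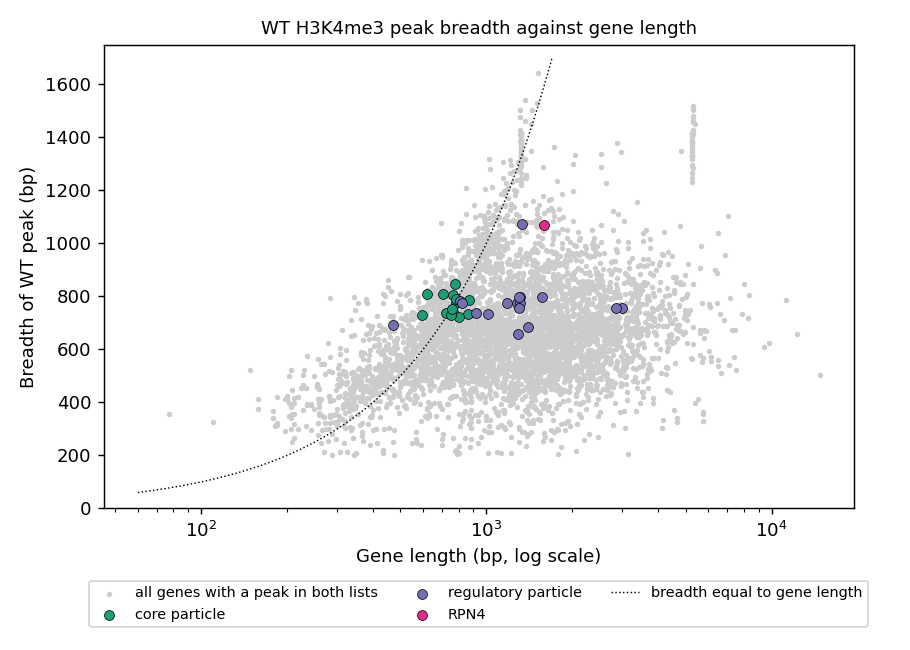
Breadth of the WT peak in bp against gene length in bp on a log axis, for all genes with a peak in both lists (grey), core particle genes (green), regulatory particle genes (purple) and *RPN4* (pink), with a dotted curve where breadth equals gene length. Core genes cluster near the curve at 596 to 866 bp, and regulatory genes of up to 2981 bp lie at much the same breadth.

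The edges showed what a difference in breadth near 0 was made of. The upstream edge was closer to the gene in *jhd2∆* at 31 of 32 genes, against 80.6% of all genes with a strand, and its median displacement was -23 bp, against -13 bp over all genes. The downstream edge was further downstream at 26 of 32, against 77.4%, with a median of 26.5 bp against 29 bp. The displacement at one edge thus nearly offset that at the other in the median member. Both edges were drawn in at 5 genes, *PRE1*, *PRE4*, *PUP2*, *RPN11* and *RPN12*, against 17.4% of all genes. Among the 2617 genes with WT pileup in the members' range the median upstream displacement was -15 bp, and 86.9% were closer to the gene. At the downstream edge of these genes the median displacement was 23 bp, and 75.04% were further downstream. The members' downstream median of 26.5 bp thus lay between that of this set and the 29 bp of all genes. Core and regulatory genes had median displacements of -21.5 and -24 bp upstream and of 23.5 and 28 bp downstream. Each of the 32 *jhd2∆* peaks lay over exactly 1 WT peak, and the overlap came to at least 81.4% of the longer peak.

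**Figure D3:**
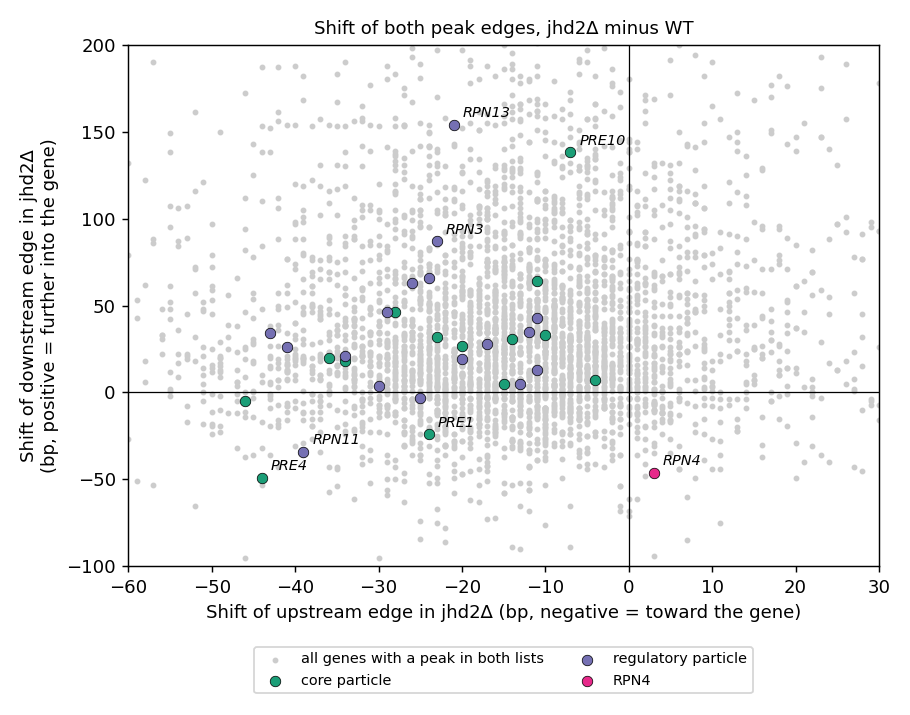
Displacement in bp of the upstream edge (horizontal axis) and the downstream edge (vertical axis) of the peak in *jhd2∆* against WT, for core particle genes (green), regulatory particle genes (purple), *RPN4* (pink) and all genes with a peak in both lists (grey, with 434 outside the axes). A positive value on the vertical axis is a shift in the direction of transcription, without regard to where the gene ends. All subunit genes lie left of 0, most of them above 0 on the vertical axis, and *RPN13* and *PRE10* lie highest.

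Pileup was lower in *jhd2∆* at the members, with a median of 324 in WT and 287.5 in *jhd2∆*, and it was lower over all genes too, at 301.5 and 273. The text of the study says that ChIP-Seq analysis needs normalizations that make the total H3K4me3 signal of both genotypes equal, and not how the deposited pileup was treated. In the same medium the study reports more bulk H3K4me3 in *jhd2∆* by western blot. It also reports more at *MRPL17*, *PMA1* and *YEF3*, genes without a change in breadth, by ChIP with quantitative PCR. The study interprets this as a general rise over transcribed genes, which its ChIP-Seq did not detect at the genes tested by PCR. From the same ChIP-Seq libraries it reports wider peaks in *jhd2∆* across many genes. It thinks this breadth may reflect the general rise, seen only at the edges of certain regions after normalization. Pileups are therefore not read as amounts between the libraries, and each value was ranked among the 4526 genes of its own list. The median member stood above 82.8% of genes in WT and above 72.1% in *jhd2∆*. Its rank was lower in *jhd2∆* at 26 of 32 genes, against 50.8% of all genes, and the median change was -13.3 percentage points. Genes with WT pileup in the members' range had a median change of -2.72 percentage points, and 57.1% of them were lower in *jhd2∆*. They share the range and not the level of the members, since their median rank in WT was 67.5%, and how far the starting rank sets the change was not tested. In WT 30 of the 32 members, and in *jhd2∆* 25, were above the median pileup of all genes. The proteasome genes were thus high in both lists, and most stood lower in the second.

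The rank was lower at 10 of 14 core genes and at 16 of 17 regulatory genes, against 50.8% of all genes. Among the regulatory genes the exception was *RPT5*, which stood above 72.4% of genes in WT and 86.0% in *jhd2∆*. *RPT1* showed the greatest distance, from 94.7% in WT to 37.0% in *jhd2∆*, and *RPT2* stood at 70.4% and 23.7%. Small steps in pileup span many ranks, since its quartiles over all genes were 282 and 317 in WT and 257 and 289 in *jhd2∆*. The pileups were 338 in WT and 266 in *jhd2∆* at *RPT1*, and 315 and 256 at *RPT2*. These ATPase genes had peaks of much the same breadth in both genotypes, at 683 and 657 bp for *RPT1*. In the core, *PRE5* stood at 89.2% in WT and 57.4% in *jhd2∆*, while *PUP3* stood at 79.3% and 85.3%. Of the protease genes, *PRE3* was low in both lists, at 39.7% and 24.9%, and *PRE2* stood at 67.5% and 75.5%. *RPN4* stood at 68.9% and 72.8%. At the core genes the median rank was 78.6% in WT and 70.0% in *jhd2∆*, and at the regulatory genes it was 89.2% and 76.8%.

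**Figure D4:**
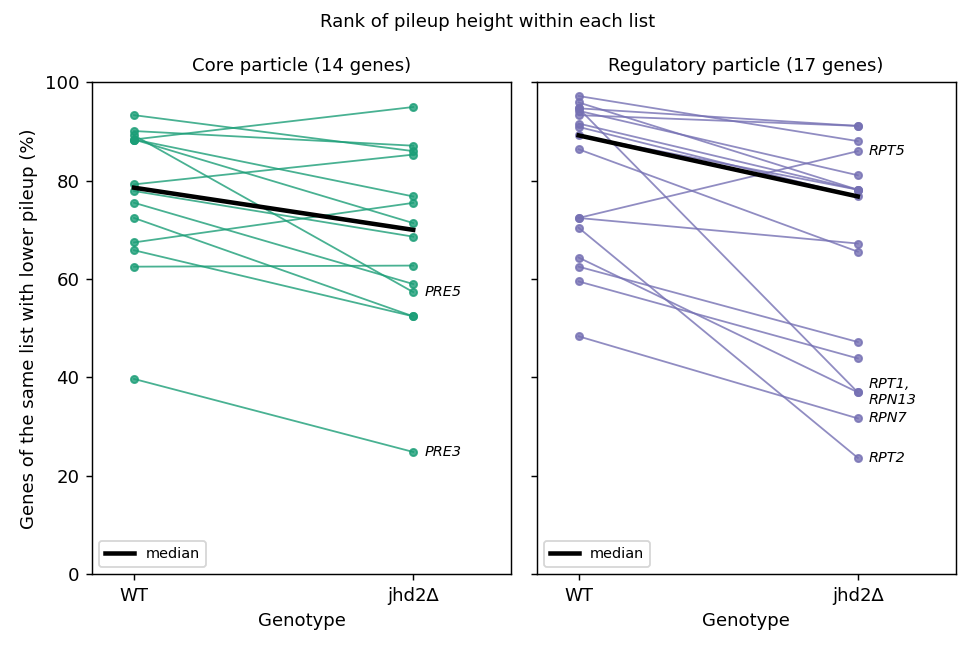
Percentage of the 4526 paired genes with a lower pileup than each core particle gene (left) and regulatory particle gene (right), in WT and *jhd2∆*, with 1 line per gene and the median in black. The medians go from 78.6% to 70.0% and from 89.2% to 76.8%, most lines slope down, and *RPN4* and *RPT6* are not drawn.

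The neighbours of the genes were read from the order of genes in the RefSeq annotation. Of the 33 genes, 21 have a divergent upstream neighbour, one that is transcribed away from a shared promoter region. Of these neighbours, 17 were in the WT list, and the share over all genes was not computed. Among the paired genes, 20 of 32 (62.5%) have a divergent upstream neighbour, against 46.8% of all paired genes. The median upstream displacement was -22 bp at these 20 and -23.5 bp at the other 12, and the downstream edge was displaced by 29.5 and 16.5 bp. The median difference in breadth was 8 bp at the 20, of which 12 were wider in *jhd2∆*, and -11.5 bp at the 12, of which 5 were wider. Over all genes it was 18 bp with a divergent and 16 bp with a tandem upstream neighbour, and 64.6% and 62.2% of those genes were wider. At the members whose downstream edge was displaced furthest downstream, the distance to the next listed peak downstream was shorter in *jhd2∆*. It was 332 bp against 452 bp in WT for *PRE10* and 414 bp against 597 bp for *RPN13*. Neither peak ran into the next. The distance is measured from the displaced edge, so its shortening is not separate from the displacement.

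Genes that act with the proteasome gave a background from the same pathway. Among 15 genes of assembly factors, activators and associated proteins, which include *SEM1*, whose product is also a small lid subunit, 13 were in both lists, and *NAS2*, an assembly chaperone, and *HUL5*, a ubiquitin ligase, were in neither. Their peaks were in the median narrower than those of the 32 members, at a median of 554 bp in WT against 636 bp in *jhd2∆*. Of the 13, 10 were wider in *jhd2∆*, against 63.2% of all genes, and the median difference of the 13 was 28 bp. None was wider by more than 100 bp, against 14.2% of all genes. The greatest of these differences was 99 bp at *RPN14*, an assembly chaperone of the base. Their median rank in pileup was 55.3% in WT and 59.0% in *jhd2∆*.

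Among 18 genes of ubiquitin, its conjugation and delivery, 17 were in both lists. Of these, 9 were wider and 7 narrower in *jhd2∆*, against 63.2% and 35.9% of all genes, and the median difference of the 17 was 7 bp. *UBR1*, the ubiquitin ligase of the N-degron pathway, was in neither list. *UBR2*, whose product is the ubiquitin ligase of Rpn4, was the only one of the 17 wider by more than 100 bp, against 14.2% of all genes. Its difference was 115 bp, with 663 bp in WT against 778 bp in *jhd2∆*. Of the 4 genes of transcription factors that act on *RPN4*, *HSF1*, *PDR1* and *PDR3* were wider in *jhd2∆* by 1, 38 and 23 bp, and *YAP1* had a difference of -14 bp. Their WT breadth had a median of 756.5 bp, close to that of the members.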

How the data were processed

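The authors aligned single-end reads with Bowtie2 2.2.3, called H3K4me3 peaks with MACS2 (broad option off) and attributed them to genes by overlap with the start of the coding region. The genome build and the control library used for calling are not given in the sources used here. The deposited lists hold breadth and gene length in bp and pileup, a coverage signal, and no q-value. The 4 pan-H3 and whole cell lysate libraries were not analysed here.

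The widest peak was taken per gene. Strand came from the systematic name, and ranks are percentages of the 4526 paired genes with a lower value. Symbols and gene order came from the RefSeq R64 table, which matched all 33 members and all 37 pathway genes. The work was done in Python 3.11.15 (pandas 2.3.3, scipy 1.17.1, matplotlib 3.10.9), and the edge computation was tested on simulated lists. Full values are given for the members with the 5 highest and the 5 lowest differences in breadth, the protease subunits, *RPN11*, *RPN4* and absent members, and the others are given by range and count. Genes shown for their rank in pileup, and *RPN5*, *RPN7*, *RPN14* and *UBR2*, were chosen after their values were seen. Members and lists were chosen with earlier results of these data known. A promoter motif search and distances to the coding start were planned and not run, since no genome was used here.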

Additional observations from a re-analysis of the deposited data

How the results depend on the processing

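Of 53 alternative values over 10 results, 50 stayed within the limits set (a median within 10 bp, a count within 1.5 times, a share within its 95% Wilson interval), and 46 equalled the reported value. The exceptions followed from the limit on breadth itself. With a limit of 50 bp, 4 members were wider and 3 were narrower in *jhd2∆*, and with 200 bp none (0) was wider. Most of these could not move a member: each has 1 peak per list, shared with no other gene, an overlap of at least 81.4%, and a pileup above the lowest 20% of peaks, so taking the highest peak, leaving out shared or low peaks and asking for 50% overlap say nothing of stability. Leaving out *RPN4* moved no result past its limits. No paired analysis was possible because there is a single H3K4me3 library of either genotype. For the same reason, differences between genotypes and between libraries cannot be told apart. The lists hold no read counts, so no counting error is given for breadth or pileup.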

Other observations

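The members were also set out by their downstream neighbour, a split examined after the values were seen. At the 17 paired members with a convergent downstream neighbour, which is transcribed toward the member, the median difference in breadth was -9 bp, with quartiles at -28 and 11 bp. At the 15 with a tandem one it was 17 bp, with quartiles at -10.5 and 27.5 bp, so the groups overlap widely. Over all genes the median was 17 bp in both arrangements. Members with a convergent neighbour had a median WT breadth of 751 bp, and those with a tandem one 796 bp, against 644 and 680 bp over all genes.

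Some members are near neighbours of each other. *PRE4* and *RPN12* flank *RET2*, and their differences were -93 and -28 bp. *RPT4* and *RPN8* flank *GCD1*, and their differences were 11 and -15 bp.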
